A study of Mus musculus with 8 samples.

Results

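Bcl2a1a, Bcl2a1b, Bcl2a1d, Mcl1, Bcl2l1, Bcl2l11, Cflar and Birc3 are 8 genes that set the threshold at which a macrophage enters apoptosis, and their transcripts were followed here in mouse peritoneal macrophages treated with LPS, with the small molecule C498, which the study took up as an inhibitor of JAK/STAT and NFκB signaling, or with both. They were taken by symbol from a table of 55801 genes. Each symbol occurred once, and all 8 genes were among the 12189 genes with a mean of at least 1 TPM that were tested. A TPM level is the share of a gene's reads per length in its sample, scaled to the same total in every sample, so that levels can be compared between genes.

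The macrophages came from male C57BL/6 mice of 6 to 8 weeks, collected from the peritoneal cavity 72 h after thioglycollate, a broth that draws macrophages into it. Each of the 4 groups had 2 samples. NC received the DMSO vehicle, LPS received vehicle and then 100 ng/ml of LPS for 4 h, C498 received 15 µM of the compound without LPS, and C498+LPS received 15 µM of C498 for 0.5 h before the same LPS challenge. LPS comes from the outer membrane of Gram-negative bacteria. All cells, NC included, were thioglycollate-elicited, and it is not stated whether the 2 samples of a group came from separate mice or cultures, so the p-values measure only the spread between these samples. The number of reads behind a TPM level is unknown.

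Apoptosis through mitochondria is decided within the BCL2 family. Anti-apoptotic members such as A1, MCL1 and BCL-XL hold back the pore-forming BAX and BAK, and BH3-only members such as BIM bind and neutralise them. A second route runs from death receptors through caspase-8, which cFLIP restrains, while cIAP2 is a ubiquitin ligase of the TNF receptor complex that favours survival over death. Several of these genes are known NFκB targets, and A1 was first described as an early response gene of haematopoietic cells.

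A1 is encoded in the mouse by near-identical copies, and 3 of them are among the genes described here. RefSeq holds a promoter window, 250 bases before to 50 bases after the annotated start, for all 8 genes (GRCm38.p6). Over the 256 aligned columns that the windows of the 3 copies share, 96.1% of the columns were identical in all 3. The stretches are shown because the 3 transcripts followed each other over the samples; capitals mark the columns in which the copies differ, which include a run of 6 bases that Bcl2a1d lacks. They lie at chr9:88956714-88956969 (plus strand) for Bcl2a1a, chr9:89199023-89199278 (plus strand) for Bcl2a1b and chr9:88731801-88732050 (minus strand) for Bcl2a1d.
Bcl2a1a: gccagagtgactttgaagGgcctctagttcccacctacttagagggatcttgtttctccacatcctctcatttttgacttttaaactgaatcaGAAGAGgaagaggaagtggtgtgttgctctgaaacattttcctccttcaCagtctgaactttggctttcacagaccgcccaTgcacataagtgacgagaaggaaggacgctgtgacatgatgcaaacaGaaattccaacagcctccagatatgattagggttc
Bcl2a1b: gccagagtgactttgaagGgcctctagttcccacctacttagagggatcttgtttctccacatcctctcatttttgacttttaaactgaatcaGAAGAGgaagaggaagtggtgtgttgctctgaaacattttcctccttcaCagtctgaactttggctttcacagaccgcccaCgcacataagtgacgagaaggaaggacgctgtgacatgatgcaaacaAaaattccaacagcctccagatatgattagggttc
Bcl2a1d: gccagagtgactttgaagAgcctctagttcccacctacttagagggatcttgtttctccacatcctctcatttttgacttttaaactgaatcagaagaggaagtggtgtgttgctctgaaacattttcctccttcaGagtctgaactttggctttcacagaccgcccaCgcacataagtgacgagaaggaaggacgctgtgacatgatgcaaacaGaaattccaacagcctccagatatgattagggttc

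The coding sequences are as close. In GENCODE M21 each of the 3 copies has 516 coding bases, of which Bcl2a1a and Bcl2a1b differ at 11 (97.9% identical), Bcl2a1a and Bcl2a1d at 7 and Bcl2a1b and Bcl2a1d at 6. Of the 12 positions that differ among the 3, 7 positions fall in the first 100 coding bases, which are shown for that reason; capitals again mark the differences. They lie at chr9:88957051-88957150 (plus strand), chr9:89199360-89199459 (plus strand) and chr9:88731620-88731719 (minus strand) of GRCm38, in the first coding exon of each gene.
Bcl2a1a: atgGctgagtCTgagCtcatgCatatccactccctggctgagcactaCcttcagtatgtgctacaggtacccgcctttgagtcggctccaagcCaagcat
Bcl2a1b: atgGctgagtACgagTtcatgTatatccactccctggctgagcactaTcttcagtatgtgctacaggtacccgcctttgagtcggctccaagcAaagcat
Bcl2a1d: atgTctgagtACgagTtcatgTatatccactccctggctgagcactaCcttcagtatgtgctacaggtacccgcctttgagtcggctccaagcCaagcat

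Of all windows of 150 bases, the length of a read, 28.2% in the Bcl2a1a transcript, 14.2% in Bcl2a1b and 30.3% in Bcl2a1d occur without a difference in another copy. The split of reads between the copies is therefore uncertain, and their summed level, with the further copy Bcl2a1c included, is given beside them. The letters GGGA and CC with any 4 bases between them were searched on both strands. This pattern is looser than the NFκB site, so a match need not be such a site. It occurred in 3 of the 11 promoter windows of the 8 genes (27.3%), 1 each of Bcl2a1b, Bcl2l11 and Birc3, and in 20.7% of all 32851 windows. The match of Bcl2a1b runs past the end of the stretch that the windows of the 3 copies share. That of Birc3 lies before its start within chr9:7873193-7873252 (minus strand). Capitals mark the match to these letters, and its function was not tested.
Birc3: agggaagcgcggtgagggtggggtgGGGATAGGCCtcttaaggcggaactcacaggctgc

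Before the comparisons, the samples were checked. All 7 macrophage markers were expressed at a mean of at least 1 TPM. Their summed level, mostly that of the lysozyme gene Lyz2, was 19847 to 20355 TPM in NC, 16586 to 17222 TPM in LPS, 15252 to 15412 TPM in C498 and 10626 to 12411 TPM in C498+LPS. The summed level of 6 fibroblast markers was 150.3 to 192.4 TPM in NC and 175.9 to 200.5 TPM in LPS, against 633.1 to 750.0 TPM in C498 and 618.1 to 910.8 TPM in C498+LPS, with Lum near 0 throughout. The summed level of 4 mesothelial markers was 3.67 to 4.65 TPM without C498 and 12.7 to 21.4 TPM with it. The summed level of 10 neutrophil markers was 226.2 to 262.8 TPM without C498 and 128.7 to 157.3 TPM with it. S100a8, Mmp8 and Csf3r made up nearly all of it, while the granule gene Ngp was listed at 0 in every sample, Ly6g in 7 of 8, and S100a9 and Cxcr2 were below 1 TPM in every sample. T cell and eosinophil markers were all below a mean of 1 TPM. B cell markers summed to 3.65 to 4.66 TPM without C498, 6.02 to 7.52 TPM in C498 and 4.46 and 13.8 TPM in C498+LPS, and mast cell markers to 7.89 to 8.73 TPM, 11.9 to 12.3 TPM and 7.21 and 20.4 TPM. In both lists, and in those of fibroblasts and mesothelial cells, C498+LPS replicate 2 was the highest of all samples. In bulk RNA, fewer cells of a type and less RNA per cell cannot be told apart. Over all tested genes the median log2 change was -0.17 for LPS vs NC, -0.18 for C498+LPS vs C498, 0.0145 for C498 vs NC and 0.00653 for C498+LPS vs LPS. Small responses to LPS are therefore also given relative to that median.

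Before any treatment the members ranged over more than an order of magnitude. In NC, Bcl2a1b had the highest mean at 367.9 ± 44.9 TPM (SD, n = 2 per group throughout). It was followed by Mcl1 at 284.1 ± 24.6 TPM, Bcl2a1d at 172.8 ± 25.8 TPM, Bcl2a1a at 93.7 ± 7.92 TPM, Bcl2l1 at 85.5 ± 1.73 TPM, Cflar at 67.6 ± 21.2 TPM, Birc3 at 38.2 ± 9.01 TPM and Bcl2l11 at 7.65 ± 2.31 TPM. No neighbours in this order had overlapping samples, but the means of Bcl2l1 and Cflar differed by less than the SD of Cflar, 1 sample of which, at 82.6 TPM, nearly reached Bcl2l1 at 84.3 TPM.

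**Figure D1:**
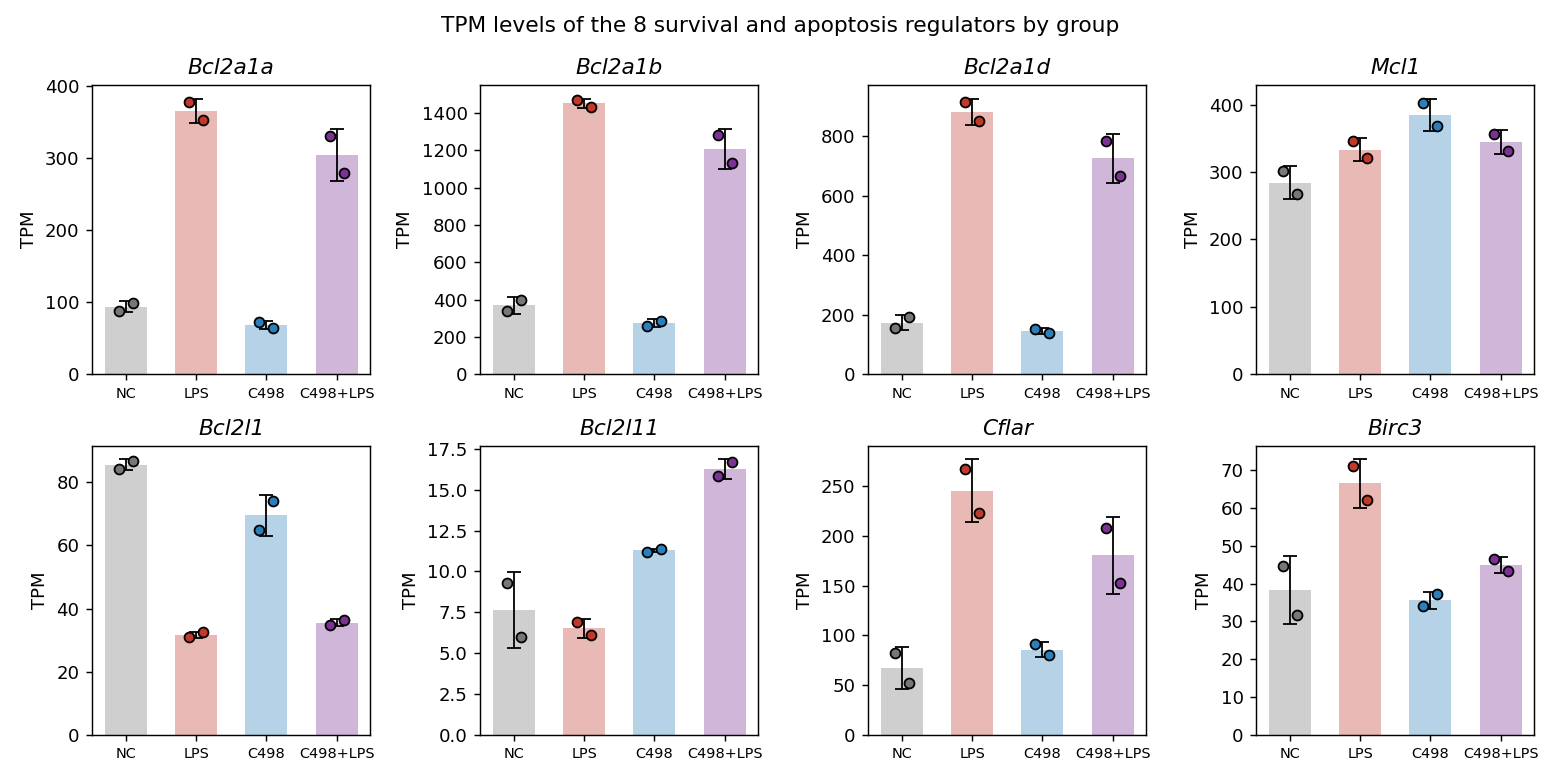
TPM level of each gene in the 4 groups, on linear axes that start at 0. Points are the 2 samples of a group, bars their mean and error bars the SD. The A1 copies and Cflar stand high in both groups with LPS, Bcl2l1 stands low in both, and Bcl2l11 is highest in C498+LPS, at 15.8 and 16.7 TPM.

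The first comparison, LPS vs NC, shows how the regulators respond to LPS in vehicle-treated cells. A call required a 2-fold change and an adjusted p no higher than 0.05, from limma on log2(TPM + 1) with Benjamini-Hochberg adjustment over all tested genes. LPS raised the 3 A1 copies and Cflar and lowered Bcl2l1. With 4 of 8 genes called upregulated and 1 downregulated, the members compare with 5.55% and 6.68% of all tested genes. Since 3 of the 4 are near-identical A1 copies, these counts are not of independent genes. By the adjusted p alone, 5 members were higher and 1 lower, against 9.84% and 19.8% of all tested genes. In 6 members every LPS sample lay above every NC sample, against 19.3% of all tested genes, and in 1 below, against 42.2%. Their median log2 change was 1.34.

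Bcl2a1a, which encodes 1 form of A1, was at 88.1 and 99.3 TPM in NC and at 377.0 and 353.1 TPM in LPS, a 3.90-fold higher mean (log2 change 1.95, standard error 0.119, adjusted p = 5.8e-05, limma). Bcl2a1b was at 336.2 and 399.7 TPM in NC and at 1469 and 1434 TPM in LPS, 3.95-fold higher (adjusted p = 4.68e-05, limma). Bcl2a1d was at 154.6 and 191.0 TPM in NC and at 912.5 and 851.0 TPM in LPS, 5.10-fold higher (adjusted p = 3.9e-05, limma). For each copy the LPS samples were far above the NC samples, and replicates lay close together. The summed level of the 4 copies went from 655.6 ± 84.7 TPM to 2806 ± 111.4 TPM, a summed log2 change of 2.10 (standard error 0.113, adjusted p = 3.45e-05, limma). The rise of the sum does not depend on how reads were divided among the copies. The neutrophil list, from a cell type that also expresses A1, summed to 244.3 to 262.8 TPM in NC and 226.2 to 244.9 TPM in LPS. Of its markers, Ngp, Ly6g, S100a9 and Cxcr2 were at or near 0 in these groups. The part of neutrophils in the A1 level was not tested.

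Bcl2l1 encodes BCL-XL, like A1 an anti-apoptotic BCL2 member, and it moved the other way. Its level was 84.3 and 86.7 TPM in NC and 31.1 and 32.4 TPM in LPS, a mean 2.69-fold lower (log2 change -1.40, standard error 0.104, adjusted p = 0.000143, limma). Replicates lay within 3 TPM of each other in both groups, which did not overlap. Since the table gives a single level per gene, the long and short forms of its transcript were not separated.

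Mcl1, the anti-apoptotic member with a short-lived transcript and protein, was at 301.5 and 266.7 TPM in NC and at 345.5 and 320.9 TPM in LPS. The LPS samples lay higher without overlap, but the log2 change of 0.23 (95% confidence interval -0.0012 to 0.46) did not pass the test (adjusted p = 0.123, limma). Relative to the median of all genes the change was 0.40, and with every sample centred on its median gene its adjusted p was 0.029, while with quantile normalization the change was 0.069 (adjusted p = 0.629).

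Bcl2l11 encodes BIM, the BH3-only member that binds all anti-apoptotic BCL2 proteins. It was at 9.28 and 6.01 TPM in NC and at 6.93 and 6.09 TPM in LPS. The groups overlapped, and the log2 change of -0.18 (95% confidence interval -0.65 to 0.30, adjusted p = 0.552, limma) equalled that of the median gene within 0.01. Its sign turned with quantile normalization, to 0.056, and without NC replicate 1, to 0.097.

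Cflar, the gene of the caspase-8 inhibitor cFLIP, was at 82.6 and 52.6 TPM in NC and at 267.9 and 223.2 TPM in LPS. The lowest LPS sample was far above the highest NC sample, and the means differed 3.63-fold (log2 change 1.88, standard error 0.235, adjusted p = 0.00148, limma). Its NC samples were spread wide, and the change was 1.56 to 2.20 when 1 sample was left out.

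Birc3, which encodes cIAP2, was at 44.6 and 31.8 TPM in NC and at 71.0 and 62.0 TPM in LPS, 1.74-fold higher. The rise passed the adjusted p (log2 change 0.80, standard error 0.167, adjusted p = 0.0117, limma) but stayed under 2-fold. Without NC replicate 1, the higher of the NC samples, it was 1.04 and past both thresholds. Without LPS replicate 1 it was 0.70 and the adjusted p, 0.0854, missed its threshold, as it did at 0.0727 when NC and LPS were fitted alone.

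The makeup of the anti-apoptotic BCL2 family changed with these levels. In NC the A1 copies made up 59.0% and 65.9% of the summed TPM of A1, Mcl1, Bcl2l1, Bcl2 and Bcl2l2, and in LPS 87.8% and 87.7%. Mcl1 went from 29.9% and 24.6% to 10.5% and 10.3%, and Bcl2l1 from 8.35% and 7.99% to 0.947% and 1.04%. The sum itself was 1010 and 1086 TPM in NC and 3285 and 3109 TPM in LPS. With C498 alone A1 made up 50.9% and 52.4% and Mcl1 41.2% and 38.4%, and with C498 and LPS A1 made up 85.9% and 84.9%. These shares are a description of the same levels and were not tested. Within A1, Bcl2a1b made up 50.9% to 57.1% of the summed TPM over the samples, Bcl2a1d 25.9% to 31.6%, Bcl2a1a 12.7% to 14.8% and Bcl2a1c 2.74% to 4.36%.

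**Figure D2:**
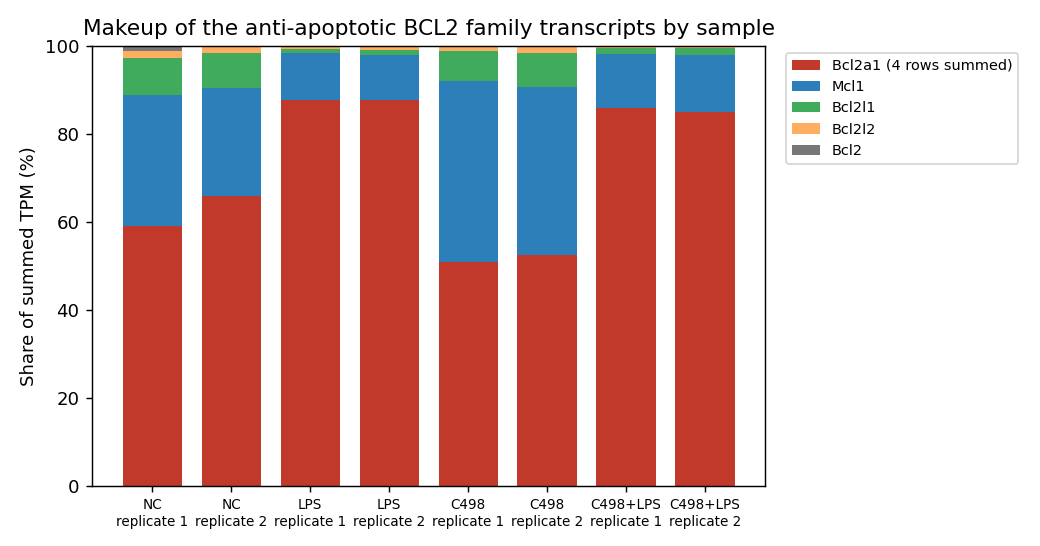
Share of each anti-apoptotic BCL2 family gene in their summed TPM, in percent, for each of the 8 samples. A1 (the 4 Bcl2a1 rows summed) takes 59.0% and 65.9% in NC, 50.9% and 52.4% in C498, and more than 84% in the 4 samples with LPS.

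The second comparison, C498 vs NC, gives the effect of the compound without LPS. None of the 8 genes was called by limma at 2-fold, where 5.64% of all tested genes were upregulated and 1.36% downregulated, and 5 of the 8 had an unadjusted p under 0.05, as did 32.0% of all tested genes. At the adjusted p alone, Mcl1 was higher, and Bcl2a1a and Bcl2a1b were lower, against 9.29% and 6.19% of all tested genes. Every C498 sample lay above every NC sample for 2 members, against 29.3% of all tested genes, and below for 4, against 28.4%.

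Mcl1 was at 401.9 and 368.3 TPM in C498 against 301.5 and 266.7 TPM in NC, 1.36-fold higher (log2 change 0.44, standard error 0.0987, adjusted p = 0.0275, limma). The 2 groups did not overlap, and C498 was the group with the highest Mcl1. Over the alternatives its adjusted p was 0.00848 to 0.168, with values above 0.05 in 9 of 18: no filter on low values, median centring, a fit of only these groups, no variance trend, and without NC replicate 2 or any 1 of the LPS and C498 samples. The summed levels of the fibroblast and mesothelial markers were also higher in C498 than in NC, as given above, and their part in the level of Mcl1 was not tested.

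The A1 copies were lower in both C498 samples than in both NC samples. Bcl2a1a was at 71.8 and 64.0 TPM in C498 (log2 change -0.46, adjusted p = 0.0428, limma), Bcl2a1b at 256.5 and 286.9 TPM (log2 change -0.43, adjusted p = 0.0454, limma) and Bcl2a1d at 150.7 and 138.1 TPM (log2 change -0.25, adjusted p = 0.231, limma). Summed over the copies, the level was 500.1 ± 3.91 TPM in C498 and the change of -0.38 missed the threshold (standard error 0.113, adjusted p = 0.0619, limma). It was -0.52 (adjusted p = 0.0244) without NC replicate 1 and -0.25 (adjusted p = 0.186) without NC replicate 2. The adjusted p of Bcl2a1a was 0.0327 to 0.209 over the alternatives and that of Bcl2a1b 0.023 to 0.25. The summed levels of the macrophage and neutrophil markers were also lower in C498 than in NC, while Cd68 and Itgam were near their NC levels. The part of these cells in the change of A1 was not tested.

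Bcl2l11 was at 11.2 and 11.4 TPM in C498, above both NC samples, with a log2 change of 0.53 (95% confidence interval 0.059 to 1.01) that missed the adjusted threshold (adjusted p = 0.119, limma). Without NC replicate 1 the change was 0.81 and without NC replicate 2 it was 0.26. Bcl2l1 was at 65.0 and 74.1 TPM, below both NC samples, with a log2 change of -0.30 (adjusted p = 0.0988, limma). Cflar, at 91.4 and 80.2 TPM, and Birc3, at 34.0 and 37.3 TPM, overlapped their NC levels, with log2 changes of 0.37 (95% confidence interval -0.18 to 0.92) and -0.080 (95% confidence interval -0.47 to 0.31). Both rested on the NC samples: without NC replicate 1 they were 0.69 and 0.157, and without NC replicate 2 they were 0.052 and -0.32.

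The third comparison, C498+LPS vs LPS, asks what the compound did in LPS-treated cells. Bcl2l11 alone was called, and it was upregulated, so that 1 of 8 members compares with 5.39% of all tested genes upregulated and 2.18% downregulated. It was also the 1 member past the adjusted p, against 9.08% of all tested genes higher and 7.7% lower. In both C498+LPS samples 5 of the 8 genes were below both LPS samples, as were 30.9% of all tested genes, and 2 were above, as were 31.9%.

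Bcl2l11 was at 15.8 and 16.7 TPM in C498+LPS and at 6.93 and 6.09 TPM in LPS, a mean 2.5-fold higher (log2 change 1.20, standard error 0.202, adjusted p = 0.00878, limma). Its 4 samples with C498 were above its 4 samples without it, and those of C498+LPS stood above those of C498. The call was lost without 3 of the 8 samples: without LPS replicate 1, LPS replicate 2 or C498+LPS replicate 2 the adjusted p was 0.0559, 0.0755 and 0.0761, with log2 changes of 1.28, 1.12 and 1.17. The summed levels of the fibroblast and mesothelial markers also stood higher in C498+LPS than in LPS, and their part in the rise of Bcl2l11 was not tested. Set beside Mcl1, whose protein BIM binds, the TPM ratio of Mcl1 to Bcl2l11 was 49.9 and 52.7 in LPS and 22.6 and 19.9 in C498+LPS, while it overlapped between NC, at 32.5 and 44.4, and C498, at 35.9 and 32.4.

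The genes that LPS had raised lay a little lower with C498, with no call. Birc3 was at 46.4 and 43.5 TPM against 71.0 and 62.0 TPM in LPS, and its log2 change of -0.55 came with an adjusted p of 0.0649 (limma), which ranged from 0.00862 to 0.283 over the alternatives. Cflar was at 208.1 and 153.1 TPM against 267.9 and 223.2 TPM, a log2 change of -0.45 (95% confidence interval -1.0 to 0.099, adjusted p = 0.244, limma), which was -0.67 without C498+LPS replicate 1 and -0.23 without C498+LPS replicate 2. Both genes had no sample of C498+LPS above a sample of LPS, and the spread between Cflar replicates was close to the difference in size.

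For the A1 copies the log2 changes were -0.27, -0.27 and -0.29, with adjusted p of 0.161 to 0.184 (limma). The summed A1 level was 2318 ± 232.2 TPM in C498+LPS and 2806 ± 111.4 TPM in LPS (log2 change -0.28, standard error 0.113, adjusted p = 0.145, limma). The summed levels of the macrophage and neutrophil markers were lower in C498+LPS than in LPS as well, and their part in this was not tested. Bcl2l1, at 34.8 and 36.4 TPM, was slightly above LPS with a log2 change of 0.16 (95% confidence interval -0.087 to 0.40), and Mcl1, at 356.9 and 331.5 TPM, overlapped LPS with a log2 change of 0.047 (95% confidence interval -0.19 to 0.28).

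The fourth comparison, C498+LPS vs C498, gives the LPS response of cells pretreated with the compound. The same 4 symbols as in LPS vs NC were called upregulated, Bcl2a1a, Bcl2a1b, Bcl2a1d and Cflar, against 2.52% of all tested genes, and none was called downregulated by limma, against 3.13%. By the adjusted p alone these 4 were higher, against 4.51% of all tested genes, and Bcl2l1 was lower, against 11.7%, and Bcl2l1 was also the 1 member lower at an unadjusted p under 0.05. Every C498+LPS sample lay above every C498 sample for 6 members, against 17.4% of all tested genes, and below for 2, against 48.8%. Both LPS comparisons use separate samples, and the A1 copies again do not count as independent genes.

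With C498, LPS raised Bcl2a1a 4.48-fold, from 71.8 and 64.0 TPM to 330.0 and 278.8 TPM (log2 change 2.15, standard error 0.119, adjusted p = 9.64e-05, limma). Bcl2a1b rose 4.44-fold to 1283 and 1130 TPM and Bcl2a1d rose 5.02-fold to 782.9 and 666.2 TPM. The groups were as far apart as those without the compound. The summed A1 level changed by 2.21 on the log2 scale (standard error 0.113, adjusted p = 7.79e-05, limma), beside 2.10 in LPS vs NC.

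Cflar rose 2.10-fold with C498, to 208.1 and 153.1 TPM (log2 change 1.05, standard error 0.235, adjusted p = 0.0257, limma), where it had risen 3.63-fold without the compound. This call was lost when no minimum TPM was set (adjusted p = 0.0786) and without any 1 of the 6 samples outside NC, with adjusted p of 0.0558 to 0.164. Bcl2l1 fell from 65.0 and 74.1 TPM to 34.8 and 36.4 TPM, a mean 1.96-fold lower and so just short of a call (log2 change -0.95, standard error 0.104, adjusted p = 0.00184, limma). Without C498 replicate 1 the change was -1.04 and was called.

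Birc3 had a log2 change of 0.33 (95% confidence interval -0.066 to 0.72, adjusted p = 0.228, limma) and Bcl2l11 one of 0.49 (95% confidence interval 0.015 to 0.96, adjusted p = 0.146, limma), both with every C498+LPS sample above every C498 sample. Relative to the median of all genes these changes were 0.50 and 0.67, and with every sample centred on its median gene they were 0.54 and 0.70 with adjusted p of 0.0187 and 0.0147 (limma), past the adjusted p but still under 2-fold. Mcl1 was at 356.9 and 331.5 TPM in C498+LPS and at 401.9 and 368.3 TPM in C498, so that it lay lower after LPS with the compound and higher without it. Its change of -0.16 (adjusted p = 0.307, limma) turned to 0.053 when every sample was centred on its median gene.

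**Figure D3:**
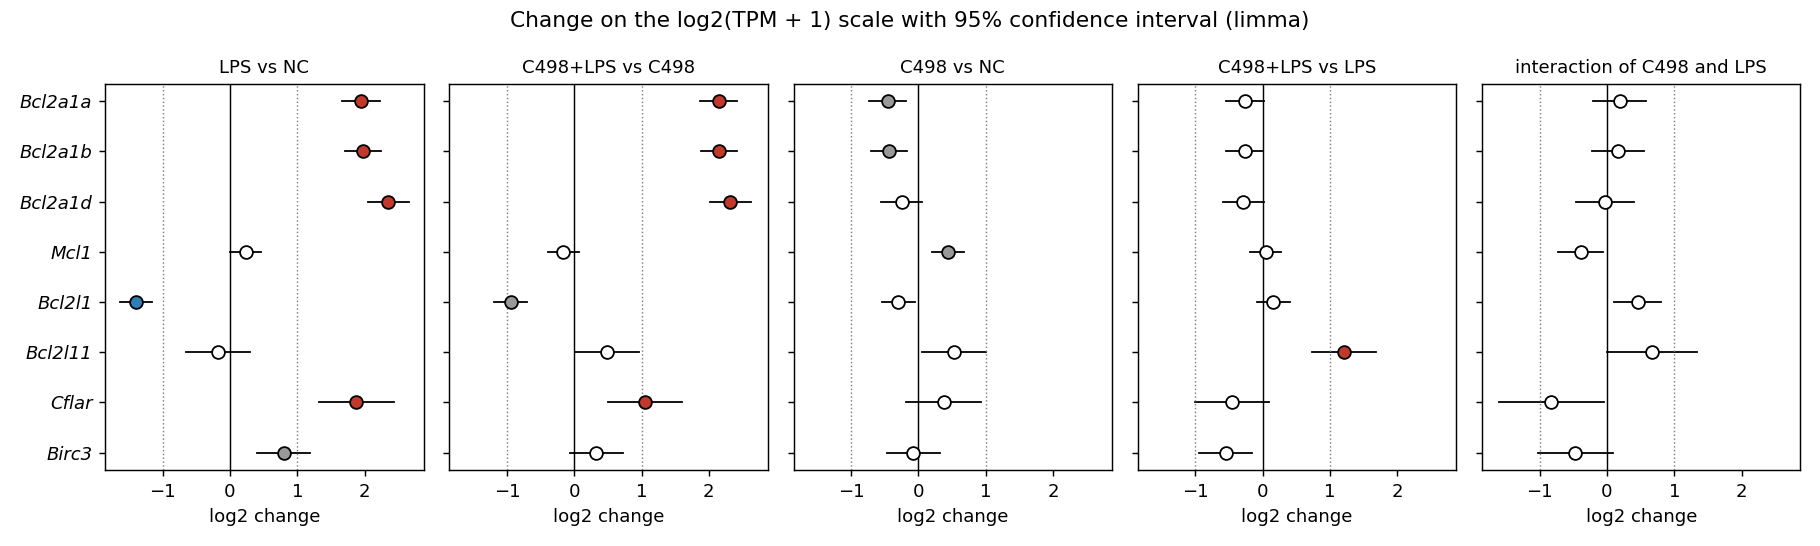
Change of each gene in the 4 comparisons and in their interaction, on the log2(TPM + 1) scale, with 95% confidence intervals from limma; dotted lines mark a 2-fold change. Red and blue points were called up and down, grey points passed the adjusted p alone and white points passed neither. The A1 copies sit near 2 in both LPS comparisons, and Bcl2l11 is the only called point in C498+LPS vs LPS, at 1.20.

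Whether the LPS response differed with C498 was tested by the interaction, the log2 change in C498+LPS vs C498 less that in LPS vs NC. None of the 8 genes passed (limma), and 3 of 8, Mcl1, Bcl2l1 and Cflar, had an unadjusted p under 0.05, as did 11.1% of all tested genes. Of all tested genes, 0.0738% were called with a positive and 0.394% with a negative interaction, and 0.0738% and 0.418% passed the adjusted p alone. The interaction was -0.82 for Cflar (95% confidence interval -1.6 to -0.045, adjusted p = 0.426), 0.46 for Bcl2l1 (0.11 to 0.80, adjusted p = 0.330), -0.39 for Mcl1 (-0.72 to -0.064, adjusted p = 0.375) and 0.67 for Bcl2l11 (-0.0020 to 1.3, adjusted p = 0.452). For Birc3 it was -0.47 (-1.0 to 0.083, adjusted p = 0.523). For the summed A1 level it was 0.11 (standard error 0.160, adjusted p = 0.842), and for the single copies the intervals ran from -0.47 at the lowest to 0.59 at the highest. With 2 samples against 2, an exact two-sided permutation test of any single gene cannot give less than p = 0.333.

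The further genes of apoptosis were taken from a list of 49 genes in 7 roles, 44 of which were tested, the others, Bcl2l10, Bik, Hrk, Naip1 and Fasl, being below a mean of 1 TPM. In LPS vs NC, 7 were called upregulated and 1 downregulated (median log2 change 0.125), in C498+LPS vs C498 7 and 1 (0.039), in C498 vs NC 4 and 0 (0.0035) and in C498+LPS vs LPS 3 and 1 (-0.33). Of the tested list genes these are 15.9% and 2.27% in both LPS comparisons, where 5.55% and 6.68% and then 2.52% and 3.13% of all tested genes were called. In C498 vs NC 9.09% of the list compares with 5.64%, and in C498+LPS vs LPS 6.82% and 2.27% compare with 5.39% and 2.18%. By the adjusted p alone, 12 of 44 list genes were lower in C498+LPS than in LPS (27.3%), against 7.7% of all tested genes, and 4 were higher (9.09%), against 9.08%. Of the list, 25 genes (56.8%) had an unadjusted p under 0.05 in that comparison, as did 31.2% of all tested genes. The macrophage markers were also lower in C498+LPS, at 0.53 (Adgre1) to 0.93 (Cd68) of their LPS means. Their part in the lower list genes, including those named below, was not tested. The medians over all tested genes were -0.17, -0.18, 0.014 and 0.0065. In C498 vs NC, where limma called none of the list downregulated, 21 of 44 passed an unadjusted p of 0.05 in either direction (47.7%), against 32.0% of all tested genes.

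Among the BH3-only genes, the role of Bcl2l11, the 2 that p53 and cell stress are known to induce were called upregulated in C498+LPS vs LPS. Pmaip1, the gene of NOXA, which binds MCL1 and A1, was at 2.71 and 2.48 TPM in LPS and at 11.5 and 12.4 TPM in C498+LPS (log2 change 1.85, standard error 0.177, adjusted p = 0.00126, limma), and without LPS it rose from 4.93 and 4.06 to 12.9 and 10.6 TPM (log2 change 1.21, adjusted p = 0.00613, limma), a call lost without C498 replicate 1 (adjusted p = 0.0698) and when NC and C498 were fitted alone (0.0683). Bbc3, the gene of PUMA, was at 7.10 and 10.3 TPM in LPS and at 25.5 and 25.1 TPM in C498+LPS (log2 change 1.46, adjusted p = 0.00239, limma). Of the 5 tested genes of this role these 2 were called upregulated in C498+LPS vs LPS, as were 5.39% of all tested genes, so that a count this small says little of the role as a whole. The fibroblast and mesothelial markers were higher in the samples with C498, and their part in the levels of Pmaip1 and Bbc3 was not tested. Bid, which links caspase-8 to mitochondria, was lower in C498+LPS vs LPS at the adjusted p alone (log2 change -0.65, adjusted p = 0.0120, limma). It did not pass under every alternative. In LPS vs NC, Bmf was called downregulated, from 2.44 and 2.16 TPM to 0.14 and 0.52 TPM (log2 change -1.33, adjusted p = 0.0295, limma). This call was lost without any 1 of the NC and LPS samples, with no filter, with centring and with quantile normalization, with adjusted p of 0.0511 to 0.141.

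The pore-forming effectors were not called in any of the 4 comparisons. Bak1 was lower at the adjusted p alone in C498 vs NC (log2 change -0.48, adjusted p = 0.0267, limma) and in C498+LPS vs LPS (-0.63, adjusted p = 0.00902, limma). Neither passed under every alternative, with changes of -0.60 to -0.42 and -0.71 to -0.50. Bax was at 379.9 to 482.6 TPM over all 8 samples. Of the other anti-apoptotic BCL2 genes, the A1 copy Bcl2a1c was called upregulated in both LPS comparisons, with log2 changes of 2.29 and 2.30. Bcl2l2, the gene of BCL-W, was lower in C498+LPS than in LPS at the adjusted p alone (log2 change -0.81, adjusted p = 0.0114, limma), and Bcl2 did not pass the adjusted p in any of the 4 comparisons. Of the IAP genes and their antagonists, the role of Birc3, none of the 9 tested was called in any comparison (limma), where 1.36% to 6.68% of all tested genes were called in a direction. Naip5 was lower at the adjusted p alone in LPS vs NC (log2 change -0.76, adjusted p = 0.0491, limma), and Birc6 was higher in C498 vs NC (0.72, adjusted p = 0.0442, limma). Over the alternatives these changes were -1.10 to -0.42 and 0.44 to 1.00. Htra2, a mitochondrial IAP antagonist, was lower at the adjusted p in all 4 comparisons, with log2 changes of -0.51 to -0.86. Relative to the median of all genes its change in LPS vs NC was -0.34. Naip5, Birc6 and Bcl2l2 did not pass under every alternative, nor did Htra2 in either LPS comparison.

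Among the caspases, Casp9, the initiator of the mitochondrial route, changed by -0.91 on the log2 scale after LPS alone and by -1.02 after LPS with C498, with adjusted p of 0.00784 and 0.0101 (limma), and lay on either side of the 2-fold threshold (interaction -0.11, adjusted p = 0.898). The call with C498 was lost without C498 replicate 1, C498 replicate 2 or C498+LPS replicate 2 (adjusted p of 0.092, 0.0769 and 0.0747), and with centring and quantile normalization, where the change was -0.80 under each. Casp8, the target of cFLIP, was lower in C498+LPS than in LPS at the adjusted p alone (log2 change -0.66, adjusted p = 0.00595, limma). The macrophage markers were lower in the same comparison, as given above, and their part in this was not tested.

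Death receptor genes differed by member. Of the 6 tested receptor and ligand genes, 3 were called upregulated in each LPS comparison, against 5.55% and 2.52% of all tested genes. In C498 vs NC 2 were called upregulated, against 5.64%. In C498+LPS vs LPS 1 was upregulated and 1 downregulated, against 5.39% and 2.18%. Tnfrsf10b, the mouse TRAIL receptor, was at 0.74 and 0.58 TPM in NC, 0.93 and 0.74 TPM in LPS, 6.05 and 5.49 TPM in C498 and 5.86 and 8.43 TPM in C498+LPS, and it was called upregulated in both comparisons of C498, with log2 changes of 2.03 and 2.13. The fibroblast and mesothelial markers were higher in the same samples, and their part in this was not tested. Its ligand Tnfsf10 was at 14.1 and 15.1 TPM in LPS and at 4.97 and 3.87 TPM in C498+LPS, called downregulated (log2 change -1.53, adjusted p = 0.00345, limma). Tnf was called upregulated in C498 vs NC as well as by LPS, with log2 changes of 1.13 and 5.40, and it was lower in C498+LPS than in LPS at the adjusted p alone (-0.57, adjusted p = 0.00961, limma). Of the 11 tested genes of the receptor complex that holds cIAP2, 3 were called upregulated in both LPS comparisons, Traf1, Tnfaip3 and Tnip1, where 5.55% and 2.52% of all tested genes were, and none was called downregulated by limma, with 1 lower at an unadjusted p under 0.05 in each. Traf1, which binds cIAP2, had log2 changes of 3.50 without and 2.42 with C498. The call of Tnfaip3 in C498+LPS vs C498 (log2 change 1.20, adjusted p = 0.00662, limma) was lost without C498 replicate 1, C498 replicate 2 or C498+LPS replicate 1, with adjusted p of 0.0582, 0.0696 and 0.0545. Tnfaip3, a ubiquitin-editing brake on NFκB, was also called upregulated by C498 alone (log2 change 1.83, adjusted p = 0.00124, limma).

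**Figure D4:**
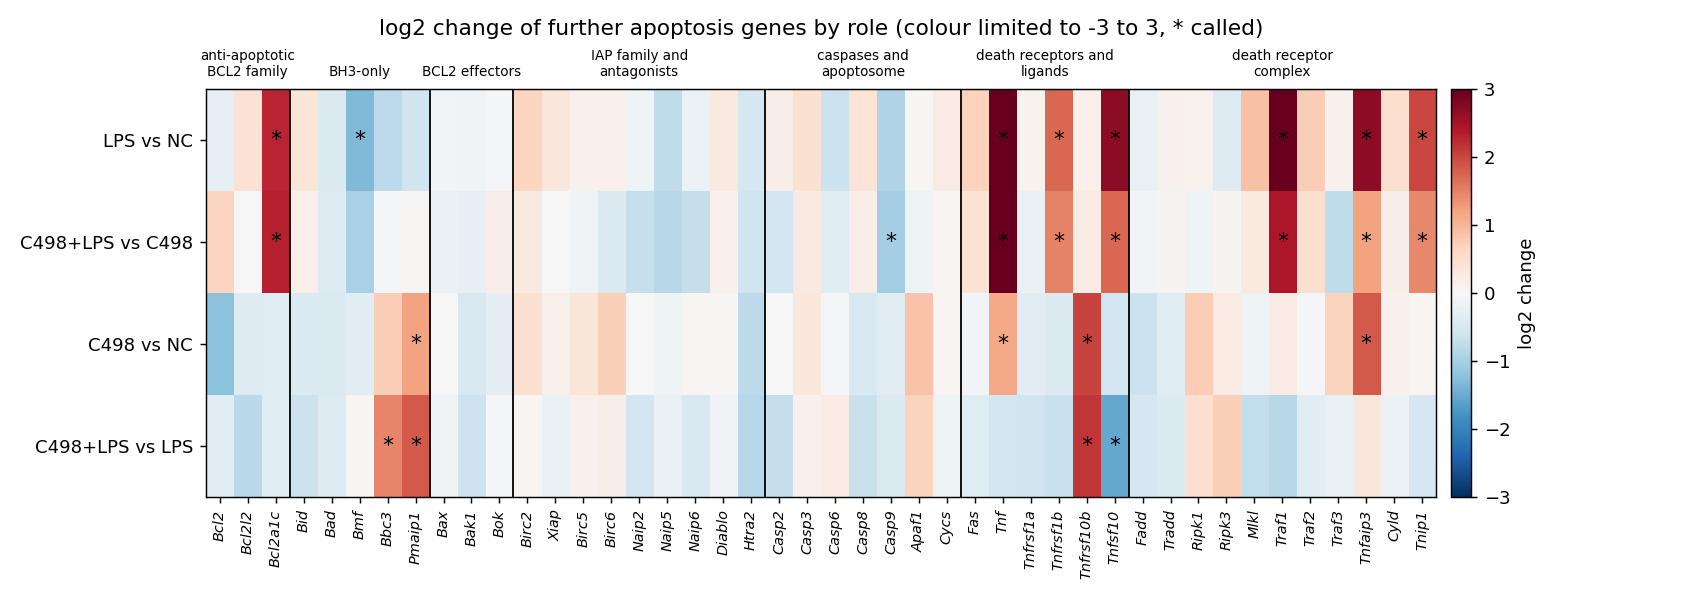
Log2 change of the 44 tested list genes, by role, in the 4 comparisons, with red for higher, blue for lower and an asterisk for a called gene; the colour scale stops at a change of 3 in either direction, which Tnf passes in both LPS comparisons and Traf1 in LPS vs NC. Pmaip1 and Tnfrsf10b are called in both comparisons of C498, with log2 changes of 1.21 to 2.13.

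The genes whose log2(TPM + 1) followed each member most closely over the 8 samples were described by Pearson's r; with 2 samples in each group, the points of a group share their treatment. The A1 copies were closest to each other, with r of 0.995 to 0.997. Cflar was closest to Slamf7 (r = 0.998) and Fam102b (0.995), Birc3 to Lrrk2 and Tor1aip1 (both 0.990) and Bcl2l1 to E2f1 (0.996) and 6430548M08Rik (0.995). Mcl1 was closest to Plpp3 (0.989) and Rab43 (0.983), and Bcl2l11 to Cyth3 (0.994) and Ppat (0.982). Between members, Bcl2l1 ran against Cflar (r = -0.967) and the A1 copies (-0.964 to -0.939), and Bcl2l11 had r between 0.004 and 0.035 with the A1 copies.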

How the data were processed

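RNA of the macrophages was sequenced on an Illumina NovaSeq with paired reads of 150 bases. The authors used fastp for filtering, HISAT2 for alignment, StringTie for assembly and RSEM for quantification, and deposited TPM values per gene and sample; tool versions, genome build and annotation are not given in the sources used here. The authors' DESeq2 test needs counts and was not repeated. Depth per sample is unknown, and replicate error alone gives the precision.

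After a log2(TPM + 1) transformation, the 12189 genes whose mean reached 1 TPM were fitted with limma 3.58.1 in R 4.3.3, with a mean for each group in 1 fit of the 8 samples and variances moderated with a trend. Adding 1 draws changes of low genes towards 0. A call required a 2-fold change and an adjusted p (Benjamini-Hochberg) no higher than 0.05, as in the study. On simulated data for LPS vs NC with 12189 genes, 157 of 200 changed genes (78.5%) were called in the right direction and 3 unchanged genes were called.

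Alternatives were a pseudocount of 0.1, no filter, a mean TPM of at least 5, the replicate number as a block, median centring, quantile normalization, fits without the other groups or without the variance trend, calls on the adjusted p alone, A1 rows summed, and leaving out each sample; they were extended to the list genes named in the text after the data were seen. The members and gene lists were chosen with earlier results of these data known. All 8 members were named, with at most 3 called list genes per role as well as others named after their values were seen (Bid, Bak1, Bax, Htra2, Naip5, Birc6, Casp8, Bcl2l2, Bcl2), and the 2 genes closest to each member by Pearson's r. Promoters are from RefSeq (GRCm38.p6) and coding sequences from GENCODE M21 (GRCm38), whose identifiers include 97.4% of the tested genes, and promoters were aligned with mafft 7.526. Protein sequences were not used here. 1 gene of the list is not reported here.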

Additional observations from a re-analysis of the deposited data

Results flagged for a closer look

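Of the 44 tested list genes, Tnf and Traf1 (4.55%) were called with a negative interaction of LPS and C498, as were 0.394% of all tested genes. For Tnf the interaction was -1.70 (standard error 0.140, adjusted p = 0.00931, limma), with a mean of 50.4 TPM in NC, 2174 TPM in LPS, 111.2 TPM in C498 and 1468 TPM in C498+LPS. For Traf1, which binds cIAP2, it was -1.08 (standard error 0.136, adjusted p = 0.0310, limma), with means of 21.7, 254.5, 25.9 and 142.7 TPM in the same order. Over 17 alternatives the interaction of Tnf was -1.83 to -1.58 with adjusted p of 0.00418 to 0.0773, and the call was lost under 3, without LPS replicate 1 (0.0773) or LPS replicate 2 (0.0559) and with no variance trend (0.0566). That of Traf1 was -1.16 to -0.87 with adjusted p of 0.0172 to 0.174, and the call was lost under 11, without any 1 sample other than NC replicate 1, with no filter, with centring, with quantile normalization and with no variance trend. None of the 8 survival and apoptosis regulators differed in this way by limma, and 3 of them had an unadjusted p under 0.05.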

How the results depend on the processing

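Over 18 alternatives and 40 changes of the members, 668 of 697 values kept both their direction and their call, 10 lost a call, 7 gained one and 12, from 5 changes that were not called, took the other sign. Of the 668, 45 lay on the other side of an adjusted p of 0.05 with no change of call, since a call also asks for a 2-fold change. Without a fold change threshold, 1 member was upregulated and 2 downregulated in C498 vs NC and 1 was downregulated in C498+LPS vs C498. With the A1 rows summed, 2 were upregulated in each LPS comparison, since 3 genes then count as 1. When each sample was left out in turn, the members called were 0 to 1 upregulated in C498+LPS vs LPS, and 0 to 1 downregulated and 3 to 4 upregulated in C498+LPS vs C498, with 4 to 5 upregulated in LPS vs NC; a lone sample is then assumed to vary like the other groups. Counts over all genes also moved. Leaving out 1 sample gave 274 (without C498 replicate 1) to 1186 (without NC replicate 1) upregulated genes in C498 vs NC against 687, 300 (without LPS replicate 2) to 677 in C498+LPS vs LPS against 657, and 71 (without C498 replicate 1) to 215 downregulated genes in C498 vs NC against 166. Upregulated genes in C498+LPS vs C498 went from 307 to as few as 181 (without C498 replicate 2), and negative interactions from 48 to 9 (without LPS replicate 1), 10 (without C498+LPS replicate 1) or 11 (without LPS replicate 2), and to 9 with no variance trend. The background shares beside the members move with these counts. With centring, downregulated genes in LPS vs NC went from 814 to 530 and in C498+LPS vs C498 from 381 to 196, and with quantile normalization those in LPS vs NC went to 510. With a mean of at least 5 TPM required, 452 genes were upregulated in C498 vs NC and 382 in C498+LPS vs LPS. The replicate block changed no call of a member (4 upregulated and 1 downregulated in LPS vs NC), but 3 changes that had missed it then passed the adjusted p alone: Mcl1 in LPS vs NC (0.0409), and Birc3 (0.0428) and Cflar (0.0434) in C498+LPS vs LPS; replicate differences correlated between groups at 0.0397 to 0.168, and the labels do not tie the numbers. TPM levels hold no depth, so counting noise at the lowest levels is unknown.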
